A study of Sus scrofa with 6 samples.

Results

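Long non-coding RNAs (lncRNAs) are RNA polymerase II transcripts that are spliced and often polyadenylated like mRNAs but have no long open reading frame. Many start within or beside a protein-coding gene, on the opposite strand or from the same start region in the other direction, and most are less abundant than mRNAs. Parthenogenetic embryos arise from an activated oocyte without sperm and so carry maternal genomes only, which changes the dose of imprinted genes, and several imprinted domains are known to contain an lncRNA.

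The lncRNA genes of pig chromosome 2 that were expressed at embryonic day 21 were described in 3 parthenogenetic (PA) and 3 control (CN) embryos. A gene was included where the NCBI annotation of Sscrofa11.1, Annotation Release 106, gives it the biotype lncRNA and where the estimated counts summed over its transcripts reached 10 in at least 3 of the 6 embryos. The members were thus chosen by their counts in these embryos. This rule left 81 of the 376 lncRNA genes of chromosome 2. Of the others, 63 had no count in any embryo, 231 had counts but did not reach the rule, and 1 was left out by name. By the same count rule 1448 of 1997 protein-coding genes of the chromosome passed. Since counts selected the 81 genes, their levels are given as a description.

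All 6 were whole embryos that the labels give as the cross Landrace x Yorkshire x Duroc. The methods name that cross for the ovary donors of PA and Landrace x Yorkshire gilts for the mating of CN, so a difference in genetic background and parthenogenesis cannot be told apart. The PA embryos came from electrically activated oocytes that developed in surrogate gilts, and the CN embryos were untreated and, by the methods of the study, from natural mating. The methods name 2 gilts for each group, so at least 2 of the 3 embryos of a group shared a gilt, but no source used here says which. P-values therefore measure the spread between these embryos. In whole embryos, fewer cells of a type and less RNA per cell cannot be told apart.

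The estimated counts of an embryo summed to between 3100284 and 3573406. Genes placed on chromosome 2 held 82.8% to 92.7% of them, genes of other chromosomes 0.294% to 0.352%, and transcripts absent from the annotation 6.91% to 16.9%, the most in PA1. TPM (transcripts per 1000000 transcripts), the length-corrected level used here, is therefore relative mostly to chromosome 2, and the share of unplaced transcripts in its total differed between embryos. The 81 lncRNAs together held 0.897% to 1.26% of the counts. Among marker lists of cell types on chromosome 2, kidney tubule markers summed to 569 to 879 TPM in CN and 88.8 to 258 in PA, with 4 of 6 called lower in PA. That list repeats in part genes that an earlier analysis of these data found lower in PA. Neural markers summed to 388 to 499 TPM in CN and 562 to 676 in PA, with 3 of 3 called higher. Skeletal muscle markers summed to 879 to 993 TPM in CN and 479 to 580 in PA, and all 4 were below CN without overlap, of which 1 (TNNI2) was called. No marker of the liver, erythroid or smooth muscle lists passed the test, although the erythroid factor KLF1 was below CN without overlap (log2 fold change -0.74, adjusted p = 0.127). Of the trophoblast list, 2 of 4 genes were in the tables, with PAG1 near 0 and ACP5 above CN in all 3 PA embryos but not called (log2 fold change 1.13, adjusted p = 0.0610). The part of these cell types in the lncRNA values was not tested.

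Start-site windows of 300 bases are printed for the lncRNAs on which the results turn: 3 that were lower in PA, the most abundant one, and a pair that start beside the coding genes WT1 and ADM. Each runs 5′ to 3′ on the strand of the lncRNA in Sscrofa11.1, with CG dinucleotides in capitals. It begins 250 bases before the annotated start of the most abundant transcript. LOC106509385 lies on the minus strand at chr2:27218199-27218498, LOC106509522 on the minus strand at chr2:117236444-117236743, LOC110259473 on the minus strand at chr2:132148643-132148942, ISYNA1 on the plus strand at chr2:59363422-59363721, LOC102161978 on the minus strand at chr2:28411563-28411862 and LOC100525978 on the plus strand at chr2:49231703-49232002.
LOC106509385: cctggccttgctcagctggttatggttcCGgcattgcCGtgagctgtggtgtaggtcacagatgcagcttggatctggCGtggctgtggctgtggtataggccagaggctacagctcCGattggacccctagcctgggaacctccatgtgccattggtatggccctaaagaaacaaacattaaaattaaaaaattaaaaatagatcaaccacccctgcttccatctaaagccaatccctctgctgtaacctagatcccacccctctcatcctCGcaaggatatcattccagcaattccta
LOC106509522: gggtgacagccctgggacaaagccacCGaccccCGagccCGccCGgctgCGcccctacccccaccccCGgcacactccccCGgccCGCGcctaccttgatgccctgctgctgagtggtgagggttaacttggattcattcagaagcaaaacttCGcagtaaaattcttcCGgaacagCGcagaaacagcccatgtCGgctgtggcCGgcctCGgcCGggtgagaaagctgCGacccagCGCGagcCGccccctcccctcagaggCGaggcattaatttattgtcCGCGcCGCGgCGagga
LOC110259473: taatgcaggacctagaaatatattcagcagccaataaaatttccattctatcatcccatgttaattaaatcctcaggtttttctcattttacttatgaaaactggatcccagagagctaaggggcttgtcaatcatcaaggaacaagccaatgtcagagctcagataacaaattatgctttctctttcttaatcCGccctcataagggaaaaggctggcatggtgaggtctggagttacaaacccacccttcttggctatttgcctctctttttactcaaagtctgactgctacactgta
ISYNA1: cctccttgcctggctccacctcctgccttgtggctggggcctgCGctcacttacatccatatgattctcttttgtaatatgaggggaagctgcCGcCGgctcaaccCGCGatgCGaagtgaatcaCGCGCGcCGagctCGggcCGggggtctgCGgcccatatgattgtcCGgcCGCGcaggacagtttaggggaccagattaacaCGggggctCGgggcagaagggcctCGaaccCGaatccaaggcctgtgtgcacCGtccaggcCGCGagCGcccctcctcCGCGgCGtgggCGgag
LOC102161978: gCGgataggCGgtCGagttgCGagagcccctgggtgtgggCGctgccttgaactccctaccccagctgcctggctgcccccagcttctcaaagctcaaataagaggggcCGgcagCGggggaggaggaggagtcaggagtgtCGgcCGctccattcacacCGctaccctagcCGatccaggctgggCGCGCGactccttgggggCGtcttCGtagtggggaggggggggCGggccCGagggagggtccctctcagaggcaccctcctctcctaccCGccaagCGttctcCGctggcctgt
LOC100525978: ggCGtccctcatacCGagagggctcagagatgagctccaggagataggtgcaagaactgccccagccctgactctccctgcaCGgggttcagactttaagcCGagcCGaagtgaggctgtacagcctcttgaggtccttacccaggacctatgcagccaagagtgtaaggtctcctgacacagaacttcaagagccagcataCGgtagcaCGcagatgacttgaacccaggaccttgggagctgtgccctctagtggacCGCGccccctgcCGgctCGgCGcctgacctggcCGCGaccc

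The 3 windows of lncRNAs that were lower in PA differed in composition. LOC106509522 held 26 CG dinucleotides in its window, while LOC106509385 held 5 and LOC110259473 held 1. The ISYNA1 window held 28, LOC102161978 held 21 and LOC100525978 held 14. Over all 81 windows the median was 14 CG dinucleotides and 59.3% G and C, with an observed to expected CG ratio of 0.636. The windows of the other 295 lncRNA genes had medians of 7 dinucleotides, 49.3% and 0.357, and those of protein-coding genes 14, 57.7% and 0.581. The start windows of the expressed lncRNAs therefore had base compositions nearer to those of coding genes than to those of the other lncRNA genes, as a description of the annotated starts. The starts were not defined alike, since the 81 windows were set on the most abundant transcript and the others on the outer start of the gene. This limit holds for the motif counts below too.

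The letters TATAAA, searched on both strands, were in 4 of the 81 windows (4.94%), in 18.6% of the other lncRNA windows, and in 12.97% of all 2374 windows of the chromosome. The letters CCAAT, also on both strands, were in 29 windows (35.8%), against 36.6% of all. The 2 motifs share an end letter, so a hit of one may touch a hit of the other. Windows of LOC106509385 and LOC110259473 held CCAAT, and none of the 6 printed windows held TATAAA.

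As transcripts, the expressed lncRNAs mostly had few exons. The median length of the most abundant transcript was 2218 bases and its median exon number 3, and 31 genes had 2 exons in it. Only 1 transcript was annotated for 50 of the 81 genes, and 45 genes lay on the plus and 36 on the minus strand. All but 4 carry LOC numbers. The exceptions, ISYNA1, TSSC4, TIMM10 and EPB41L4A, bear the names of protein-coding genes, but this annotation gives them non-coding transcripts alone. Whether those transcripts hold a long open reading frame was not examined, so they count as lncRNAs by the annotation alone.

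By position, 41 of the 81 (50.6%) overlapped a protein-coding gene on the opposite strand, compared with 102 of the other 295 lncRNA genes (34.6%). A further 11 (13.6%) lay head to head with a coding gene, with starts within 2000 bases and no overlap, compared with 20 (6.78%). Another 16 (19.8%) were otherwise within 10000 bases of a coding gene and 3 overlapped one on the same strand. The remaining 10 (12.3%) were farther away, compared with 115 of the other lncRNA genes (39.0%). The expressed lncRNAs were thus mostly partners of a coding gene, a description on which no test was run. The library kit does not mark strand, so on shared exons reads of an lncRNA and of its antisense partner cannot be told apart. Exonic bases were shared with another gene by 34 of the 81, and by over 10% of their exonic bases in 14.

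Levels spanned from 0.288 to 6059 TPM as means of the 6 embryos, with a median of 8.90. Above 100 TPM were 9 lncRNAs, 28 were at 10 to 100 and 44 below 10. Among tested genes the median was 9.08 TPM for lncRNAs and 153 for chromosome 2 coding genes. The plot of group means shows the lncRNAs along the diagonal, with ISYNA1 apart at the top.

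**Figure D1:**
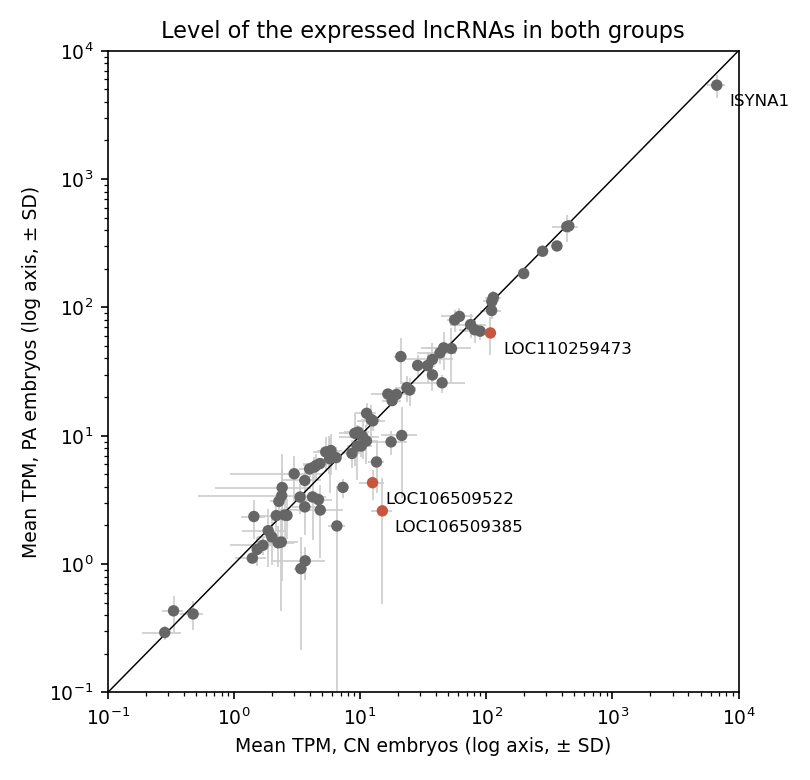
Mean TPM of each of the 81 lncRNAs in CN (horizontal, log axis) and PA embryos (vertical, log axis), with SD bars over 3 embryos per group and the line of equal level; bars that pass 0.1 TPM end at the frame. Red points are the 3 lncRNAs with adjusted p below 0.05, all under the line, and ISYNA1 lies at 6726 TPM in CN and 5393 in PA.

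ISYNA1, named for the enzyme that makes inositol phosphate from glucose phosphate, was the most abundant and supplied 48.9% to 66.5% of all counts of the 81 lncRNAs. Its level was 5662, 6576 and 7940 TPM in CN1, CN2 and CN3 and 6276, 5724 and 4178 TPM in PA1, PA2 and PA3. The groups overlapped, and the log2 fold change, PA over CN, was -0.23 (SE 0.20, adjusted p = 0.569). Nearly all of its counts fell on 1 of its 2 transcripts, with a share of over 99.6% of its TPM in every embryo.

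The next most abundant lncRNAs also had similar levels in both groups. LOC100627892, which starts 160 bases from the start of SLC3A2, the heavy chain of an amino acid transporter, was at 452 ± 49.2 TPM in CN and 432 ± 48.8 in PA (SD, n = 3). SLC3A2 itself was at 645 ± 73.0 and 512 ± 56.0 TPM, without overlap in scaled counts (log2 fold change -0.26, adjusted p = 0.129). LOC100513397 was at 435 ± 101 and 426 ± 101 TPM. TIMM10, named for a chaperone of mitochondrial protein import, was at 398, 336 and 357 TPM in CN and 285, 310 and 309 in PA, without overlap in TPM but with overlap in scaled counts, and did not pass the test (log2 fold change -0.21, adjusted p = 0.457). EPB41L4A, named for a membrane-cytoskeleton protein of the band 4.1 family, was at 198 ± 17.0 and 184 ± 18.4 TPM. LOC102163816 and LOC100513133 are neighbours on the chromosome and were at 114 and 111 TPM in CN and 119 and 111 in PA. LOC110259298 was at 110 and 94.6 TPM, and shares 51.4% of its exonic bases with TEAD1, a transcription factor of the Hippo pathway, so its level is uncertain. LOC110259473 completes the 10 most abundant, and of these 10 it alone passed the test.

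TSSC4 was the only one of the 81 within 1000000 bases of the imprinted genes IGF2 and KCNQ1. It is named for a protein of spliceosome assembly and lies 736 bases from TRPM5, a cation channel of taste cells. Its level was 264, 297 and 279 TPM in CN and 268, 262 and 292 in PA. The groups overlapped, with a log2 fold change of 0.04 (SE 0.08, adjusted p = 0.834), which was the most precise estimate among the named lncRNAs. TRPM5 was at 9.39, 9.79 and 7.90 TPM in CN and 4.86, 4.24 and 5.71 in PA, without overlap, and did not pass the test (log2 fold change -0.81, SE 0.22, adjusted p = 0.0706, and 0.0549 to 0.216 over the alternatives).

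At the lower end, the rule admitted genes with few counts. LOC102163715 had 6, 10 and 15 counts in CN and 8, 10 and 10 in PA, so exactly 4 embryos reached 10, and it was the 1 gene of the 81 that the expression filter of the test left out. LOC102165042 had 12, 9 and 9.8 counts in CN and 9, 14 and 10 in PA. Just outside the rule were LOC110259336 with 10.2, 4.1 and 13.3 counts in CN and 6.1, 9.1 and 3.0 in PA, and LOC110259319 with 1.0, 9.2 and 14.0 in CN and 9.1, 8.0 and 7.1 in PA. In all, 56 of the 81 reached 10 counts in all 6 embryos, 7 in 5, 12 in 4 and 6 in 3.

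PA was compared with CN to ask which transcripts differ in embryos that lack a paternal genome. Of the 80 lncRNAs tested, 3 had an adjusted p below 0.05 (3.75%), and over all 1652 genes tested 6.54% had one. All 3 were lower in PA, where 4.42% of all genes were called lower. Of the 3, 2 also changed by over 1 on the log2 scale, and 2.91% of all genes were called with such a change. None was called higher in PA by edgeR or by DESeq2. At an unadjusted p below 0.05 there were 11 lncRNAs (13.8%), 3 higher and 8 lower, against 21.2% of all genes. The share called was thus below the background of all genes in this fit, and no test of that difference was run. Without a filter it was above the background, with 6 of 81 lncRNAs against 196 of 4269 genes. With library totals the share that also changed by over 1 was above it, with 4 of 80 against 61 of 1652.

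The median lncRNA had nearly the same level in both groups. The median log2 fold change was 0.04 over the 80 and 0.02 over all genes tested, and 43 of the 80 values were positive. Within 0.5 of 0 were 59 lncRNAs (73.8%), compared with 84.1% of all genes. Below -1 were 7 lncRNAs and above 1 was 1, compared with 70 and 12 of the 1652 genes tested. The lncRNAs were measured less precisely than coding genes of the chromosome, with a median of 24.8 counts against 823.5, a median coefficient of variation within groups of 23.5% against 9.83%, and a median SE of the log2 fold change of 0.31 against 0.13. At this depth a change of a given size was therefore harder to detect in the lncRNAs than in the coding genes.

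**Figure D2:**
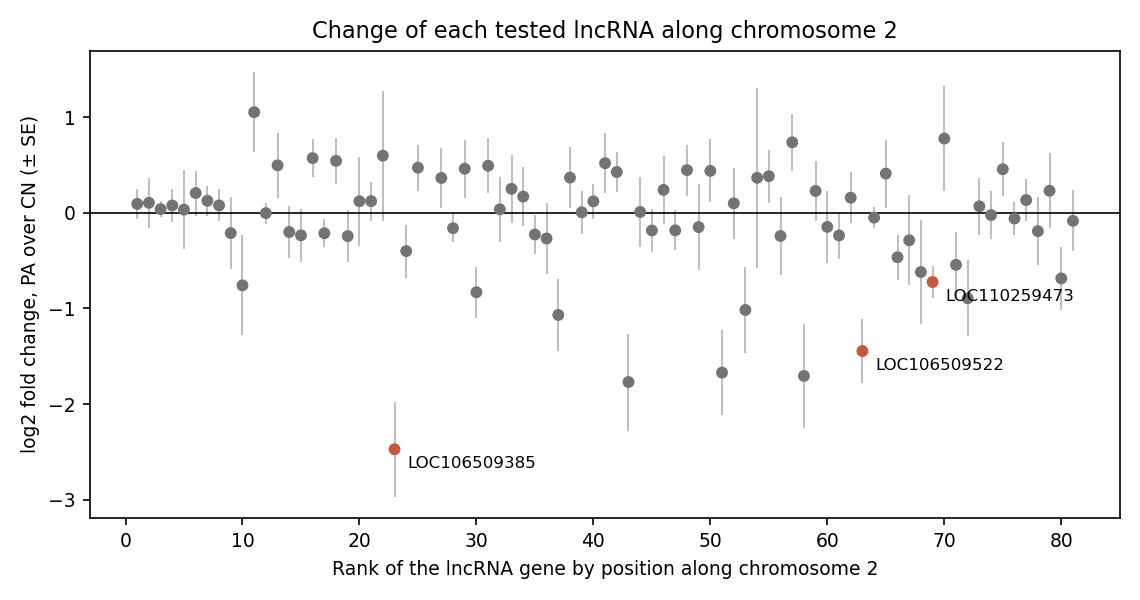
Log2 fold change, PA over CN, of the 80 tested lncRNAs (vertical, ± SE from edgeR, 6 embryos) against their rank by position on chromosome 2 (horizontal). Red points are the 3 with adjusted p below 0.05, at ranks 23, 63 and 69; the rest lie on both sides of 0, except for the last 2, which are both below it.

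Along the chromosome, values of both signs occurred in each window of 25 Mb (megabases) but the last, as the plot of changes by position shows. The first window held 20 of the 81 lncRNAs and the windows after it 11, 14, 11, 10, 13 and 2. In the first window 13 of 20 log2 fold changes were positive, with a median of 0.08 and no call. The 3 called lncRNAs lay in 3 different windows, from 25 to 50, from 100 to 125 and from 125 to 150 Mb.

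LOC106509385 fell most in PA. This lncRNA of 2 exons at chr2:27198910-27218248 runs on the minus strand into the end of CD59, the membrane inhibitor of the complement attack complex. It had 29, 35 and 39 counts in CN1, CN2 and CN3 and 1, 7 and 11 in PA1, PA2 and PA3, or 15.02 ± 2.82 and 2.60 ± 2.11 TPM (SD, n = 3). The groups did not overlap, and PA1 was the lowest. The log2 fold change was -2.47 (SE 0.50, adjusted p = 0.0230).

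The call for LOC106509385 was lost without CN2 (adjusted p = 0.0895), CN3 (0.0780) or PA2 (0.0777) and held without CN1 (0.0477), PA1 (0.0194) or PA3 (0.0293). Its log2 fold change stayed between -3.07 and -1.99 in the 12 alternatives. It shares no exonic bases with CD59. The coding partner was at 390, 420 and 370 TPM in CN and 373, 640 and 409 in PA, overlapping between groups (log2 fold change 0.34, adjusted p = 0.376).

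LOC106509522 fell in PA by a smaller amount. It is a minus-strand lncRNA at chr2:117043596-117236493 whose start lies 1306 bases inside EPB41L4A, the plus-strand lncRNA described above, so that the starts of both overlap. Its nearest coding gene is APC, a tumour suppressor that restrains Wnt signalling, 58292 bases away. It had 15, 13 and 22 counts in CN and 5, 6 and 12.1 in PA, or 12.6 ± 2.83 and 4.31 ± 1.13 TPM. The groups did not overlap in TPM or in scaled counts, although the counts themselves are few. The log2 fold change was -1.45 (SE 0.33, adjusted p = 0.0406).

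The call for LOC106509522 was lost without any 1 of the 6 embryos: CN1 (adjusted p = 0.0618), CN2 (0.122), CN3 (0.176), PA1 (0.0814), PA2 (0.131) or PA3 (0.0913). It was also lost in DESeq2 (0.109) and without the length offset (0.125). Its overlapping partner EPB41L4A did not pass the test (log2 fold change -0.05, SE 0.11, adjusted p = 0.836), nor did APC (0.32, adjusted p = 0.174). The pair share 114 exonic bases, 4.86% of those of LOC106509522.

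LOC110259473 fell in PA from the highest level of the 3. It lies on the minus strand at chr2:132143417-132148692, has 4 exons and 3988 bases, and covers the start of ADAMTS19, a secreted metalloprotease. Its level was 102, 122 and 99.8 TPM in CN and 45.9, 57.3 and 86.5 in PA. The groups did not overlap, with PA3 the nearest to CN. The log2 fold change was -0.72 (SE 0.17, adjusted p = 0.0428).

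Leaving out PA3 lowered the adjusted p of LOC110259473 to 0.00691, and leaving out CN1 (0.0892), CN2 (0.137), CN3 (0.0780), PA1 (0.0680) or PA2 (0.142) ended the call. ADAMTS19 was at 58.5, 88.6 and 72.8 TPM in CN and 54.6, 63.0 and 87.7 in PA, which overlapped (log2 fold change -0.03, adjusted p = 0.910, with a sign that turned without CN2, PA1 or PA2). Of the exonic bases of LOC110259473, 11.5% are shared with ADAMTS19 or with LOC102163451, so a part of its reads cannot be assigned with certainty.

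**Figure D3:**
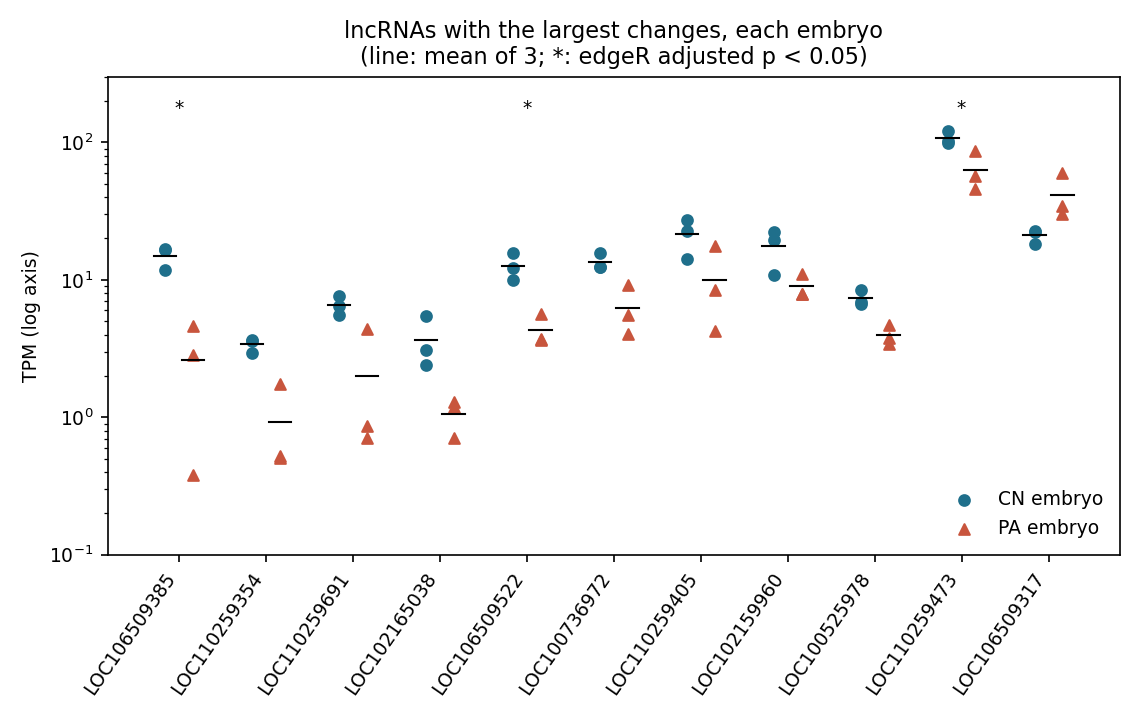
TPM (log axis) of the 10 lncRNAs with the largest absolute log2 fold change and of LOC110259473, in each CN (circles) and PA (triangles) embryo, with the mean of 3 as a line; asterisks mark adjusted p below 0.05. The PA mean is above the CN mean in LOC106509317 and below it in the other 10 lncRNAs shown.

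The other lncRNAs with large differences did not pass the test. LOC110259354 lies 46514 bases from SAFB2, a scaffold-binding nuclear protein, and had 21.7, 15 and 19.9 counts in CN and 11, 3 and 3 in PA. The groups did not overlap, with a log2 fold change of -1.77 (SE 0.51, adjusted p = 0.0823). Without PA1, the highest of its PA embryos, the log2 fold change was -2.68 (adjusted p = 0.0194), and over all alternatives the adjusted p ran from 0.0091 to 0.238.

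LOC102165038 lies 2880 bases from TMEM174, a membrane protein of kidney tubule cells. The lncRNA had 18, 15 and 27 counts in CN and 10, 8 and 5 in PA, at 3.67 ± 1.62 and 1.06 ± 0.31 TPM. Its groups did not overlap (log2 fold change -1.67, SE 0.45, adjusted p = 0.0668). Library totals (adjusted p = 0.0344) and no filter (0.00861) gave a call, and over all alternatives the adjusted p reached 0.224. TMEM174 fell from 53.7, 59.5 and 78.1 TPM in CN to 12.1, 2.25 and 14.5 in PA (log2 fold change -2.65, adjusted p = 0.0154; 0.0595 without CN3). Of the 6 kidney tubule markers given above, 4 were called lower in PA. BHMT (log2 fold change 0.16) and SLC22A6 (0.13) overlapped between the groups. The part of kidney tubule cells in the values of this pair was not tested.

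LOC110259691, antisense to CAST, the inhibitor of calpain proteases, was split between the PA embryos. It had 108.1, 125 and 120 counts in CN1, CN2 and CN3, but 15 and 17 in PA1 and PA2 and 83 in PA3. PA3 was near the CN embryos and the other PA embryos were far below. The log2 fold change was -1.71 (SE 0.55, adjusted p = 0.113). Without PA3 it was -2.90 (adjusted p = 0.00116), and DESeq2 called it with all embryos (adjusted p = 0.0171), while over all alternatives the adjusted p ran from 0.00116 to 0.269. CAST was at 331 ± 45.4 TPM in CN and 275 ± 19.7 in PA (log2 fold change -0.19).

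The same embryos also differed in which transcript of LOC110259691 took the counts. Of its 5 annotated transcripts, 4 contain an exon of 117 bases at chr2:103364735-103364851 (minus strand), and XR_002342059.1 lacks it. In CN1, CN2, CN3 and PA3, 100% of the counts were assigned to transcripts with the exon. In PA1 and PA2, 0% were, and all of their 15 and 17 counts fell on XR_002342059.1. The exon is printed in capitals as in the RNA, with 30 bases of the exons before and after it in lower case, because it is present in the 4 other transcripts and absent from XR_002342059.1, which also differs from some of them elsewhere.
LOC110259691: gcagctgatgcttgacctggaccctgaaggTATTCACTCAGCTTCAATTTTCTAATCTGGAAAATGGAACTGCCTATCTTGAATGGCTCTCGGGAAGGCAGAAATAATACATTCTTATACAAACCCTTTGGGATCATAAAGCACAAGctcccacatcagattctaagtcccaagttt

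**Figure D4:**
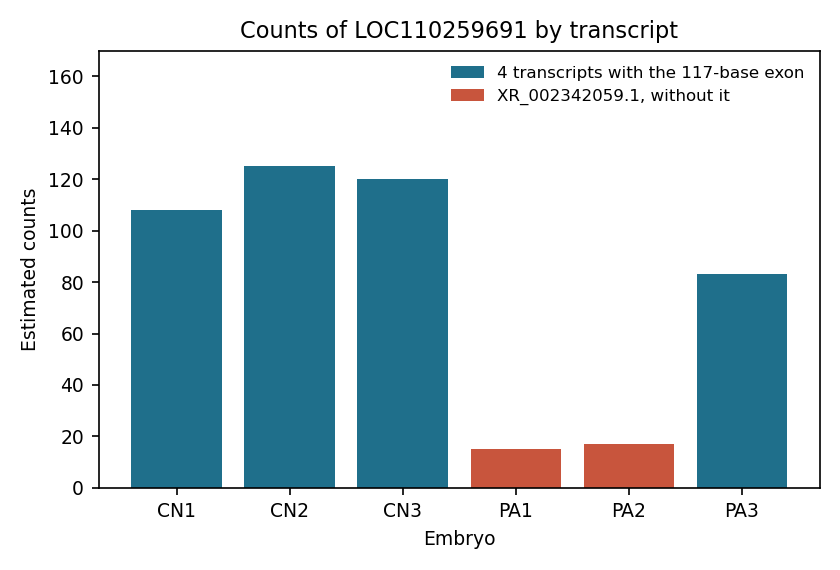
Estimated counts of LOC110259691 (vertical) in each embryo (horizontal), split into the 4 transcripts with the 117-base exon and XR_002342059.1, which lacks it. PA1 and PA2 hold 15 and 17 counts, all on the transcript without the exon, and the 4 other embryos hold 83 to 125 counts, all on transcripts with it.

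Salmon assigned these counts by a statistical model, so the split is an estimate from few reads in PA1 and PA2. An assignment that came and went between embryos was also seen within LOC100627892, where XR_001306759.2 took 91.4 counts in CN1 and 146.7 in PA2 and 0 in the other 4 embryos.

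The remaining lncRNAs with large differences also had no call. LOC100736972, antisense to WDR83OS, had 27, 17 and 24 counts in CN and 15, 20 and 11 in PA (log2 fold change -1.07, SE 0.38, adjusted p = 0.140). LOC110259405, antisense to the lysosomal sulfatase gene ARSB, was at 14.1, 22.8 and 27.2 TPM in CN and 4.22, 17.5 and 8.41 in PA (-1.02, SE 0.45, adjusted p = 0.244). LOC110259405 was at -1.70 without PA2 (adjusted p = 0.0534) and -0.67 without PA1 (0.344), and was called without a filter (0.00856), with a highest adjusted p of 0.516 over the alternatives. LOC102159960, antisense to SHROOM1, a gene of the actin-binding Shroom family, had 19, 14.9 and 11 counts in CN and 7, 8 and 11 in PA (-0.89, SE 0.40, adjusted p = 0.244; -0.59 without CN1). LOC100736972, at -0.59 without the length offset, and LOC110259405 overlapped between groups in scaled counts, and LOC102159960 did not. In TPM LOC102159960 overlapped and LOC100736972 did not. Their neighbours ARSB and SHROOM1 were both apart between groups in scaled counts. ARSB was lower in each PA embryo (log2 fold change -0.52, adjusted p = 0.119) and was called by DESeq2 (0.0292), with library totals (0.0329) and without a filter (0.000159), with a highest adjusted p of 0.307 over the alternatives. SHROOM1 was higher in each PA embryo in scaled counts, opposite in sign to its lncRNA (log2 fold change 0.38, adjusted p = 0.102). In TPM its groups overlapped, with 81.3 in PA1 and 84.5 in CN2. SHROOM1 was called without PA1 (0.0399), with a highest adjusted p of 0.287.

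LOC100525978 starts 432 bases from the start of ADM, which encodes the vasodilator peptide adrenomedullin, in the opposite direction. The lncRNA was at 8.37, 6.67 and 6.90 TPM in CN and 3.75, 3.44 and 4.70 in PA, without overlap (log2 fold change -0.83, SE 0.27, adjusted p = 0.114). ADM was at 54.5, 54.8 and 55.6 TPM in CN and 61.6, 163 and 57.4 in PA (log2 fold change 0.84, adjusted p = 0.267). Values of this pair had opposite signs, with PA2 alone far above the rest for ADM, and neither passed the test.

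LOC106509317 was the 1 lncRNA at 10 or more counts in all 3 embryos of one group and under 10 in all 3 of the other. It had 9, 8 and 7 counts in CN and 25, 14 and 12 in PA. It met the rule for inclusion through the PA embryos alone, so the absence of overlap was fixed by that choice. In the other direction, LOC110259354, LOC102165038 and LOC102159960 met the rule through the CN embryos, with only 1 PA embryo at 10 counts or more. The log2 fold change of LOC106509317 was 1.05 (SE 0.42, adjusted p = 0.196), and 0.62 without PA1, the embryo with 25 counts. It lies antisense to BAD, a promoter of apoptosis, and shares 24.0% of its exonic bases with it. BAD was at 227 ± 5.84 and 221 ± 18.8 TPM and did not pass the test.

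In 15 of the 80 tested lncRNAs (18.8%) the scaled counts of the PA and CN embryos did not overlap, 7 with PA above and 8 with PA below, and over all genes tested 28.9% did not overlap. Those with PA above, named here after their values were seen, were LOC106509317, LOC106509343, LOC102167839, LOC102164222, LOC110259304, LOC106509445 and LOC106509575. In TPM 14 did not overlap, 4 with PA above and 10 with PA below, and LOC102164222, LOC110259304, LOC106509445 and LOC106509575 overlapped, so the balance of directions depended on the scaling. LOC106509343 was at 56.4, 63.4 and 48.6 TPM in CN and 79.6, 64.2 and 96.0 in PA, with a log2 fold change of 0.57 (SE 0.20, adjusted p = 0.136). The other 5 beside LOC106509317 had log2 fold changes of 0.43 to 0.54 and adjusted p of 0.243 to 0.441. The differences with PA above were smaller than most of those with PA below, and none passed the test.

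Each lncRNA was set beside its coding neighbour, the gene it overlaps or else the nearest one. In 76 pairs both were tested, and in 48 of them the signs of the log2 fold changes were the same. Pearson's r across the 76 pairs was 0.18 and Spearman's rho 0.18, a description, since the pairs come from the same 6 libraries and some share a neighbour. The 38 antisense pairs had 22 of the same sign, the 10 head to head pairs 6 the 15 other pairs within 10000 bases 11, the 10 pairs farther apart 7 and the 3 same-strand pairs 2. The plot of lncRNAs against neighbours shows most points close to 0 on the neighbour axis.

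**Figure D5:**
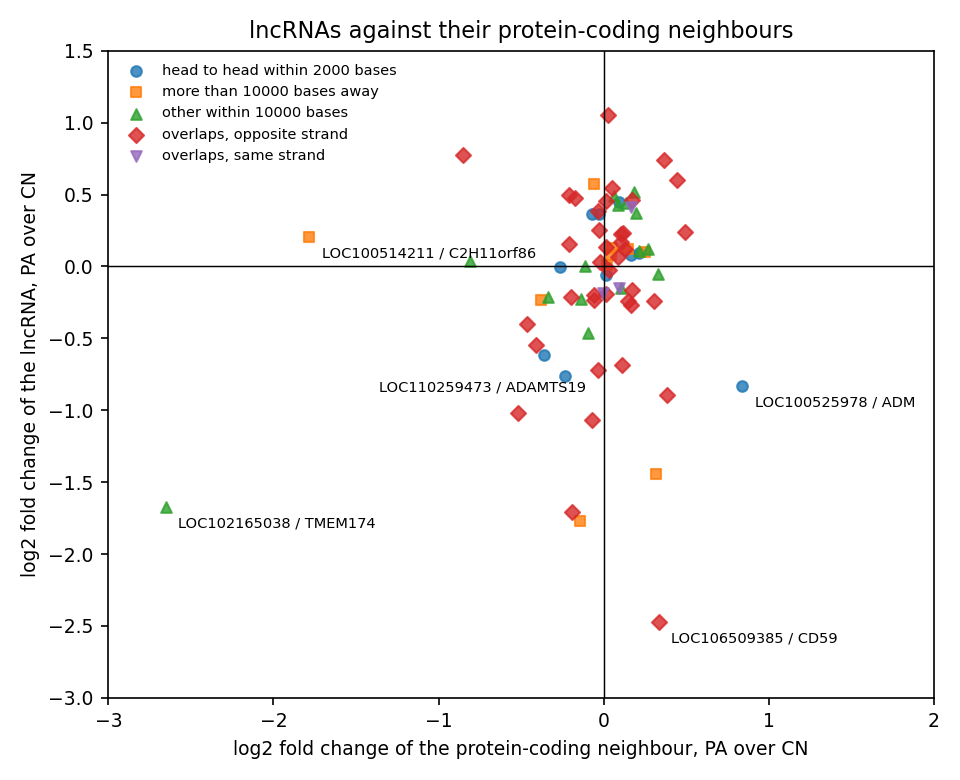
Log2 fold change, PA over CN, of the lncRNA (vertical) against that of its coding neighbour (horizontal) for 76 pairs tested in the same edgeR fit, with colour and shape by position class. LOC102165038 and TMEM174 are both far below 0, at -1.67 and -2.65, whereas LOC106509385 is at -2.47 and CD59 at 0.34.

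In level, 11 lncRNAs were above their neighbour in TPM, and the median lncRNA was at 6.45% of it. In 18 pairs the lncRNA started within 2000 bases of the neighbour's start on the opposite strand, 7 of them overlapping it. There the lncRNA was at 0.172% to 313% of the neighbour, with a median of 7.59%, and was above it in 1 pair. None of these lncRNAs was called by edgeR, where 6.54% of all genes tested were. Of the 17 tested neighbours 1 was, compared with 7.05% of the coding genes of chromosome 2 tested.

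That neighbour was WT1, a transcription factor of the developing kidney and gonad, and its pair is described after its values were seen. WT1 fell from 129, 164 and 137 TPM in CN to 94.1, 93.6 and 109 in PA (log2 fold change -0.47, adjusted p = 0.0217). The adjusted p was 0.108 without CN2, 0.0563 without CN3, 0.0934 without PA2 and 0.0701 without PA3, each past the threshold. LOC102161978, whose start lies 145 bases from that of WT1, was at 113, 92.6 and 62.7 TPM in CN and 71.7, 54.3 and 69.9 in PA. Its groups overlapped (log2 fold change -0.40, SE 0.28, adjusted p = 0.461), and it shares 13.2% of its exonic bases with WT1.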

How the data were processed

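RNA of 6 whole embryos (3 CN, 3 PA) had been sequenced from TruSeq version 2 RNA libraries, a kit that does not mark strand. The authors quantified the reads against the pig transcriptome with Salmon 1.3.0 and deposited, per embryo and transcript, an estimated count that is not normalized. The authors also deposited a TPM value and an effective length, another quantity, from the same run. The submitters' processing notes name the build Sscrofa11.1.

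Estimated counts were summed by gene with Annotation Release 106, rounded and fitted over the whole table in R 4.3.3 with edgeR 4.0.16: TMM factors, a transcript length offset, filterByExpr (minimum count 10, minimum total 15) and the robust quasi-likelihood test, two-sided, with Benjamini-Hochberg adjustment over the 1652 genes tested. The threshold was an adjusted p of 0.05. The SE was taken as the size of the log2 fold change over the square root of F. Scaled counts are TMM-scaled CPM. Between 3100284 and 3573406 counts per embryo, 3 counts equal 0.840 to 0.968 CPM, which covers counting error only.

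Alternatives were DESeq2 1.42.0, library totals, no length offset, no filter, a filter of 10 counts in every embryo, chromosome 2 genes alone, the replicate number as a block and leaving out each embryo. Neighbours, shared exonic bases and windows came from the genome and annotation, with pandas 2.3.3. Named were lncRNAs with adjusted p below 0.05, the 10 with the largest change, the 10 with the highest TPM, those within 1000000 bases of IGF2 or KCNQ1, those at 10 counts in 1 group alone, those with a symbol, and those nearest the inclusion limit, with their neighbours, of which 1 is not reported here. Others are said to be named later. Members and lists were chosen with earlier results of these data known.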

Additional observations from a re-analysis of the deposited data

How the results depend on the processing

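The log2 fold changes of LOC106509385, LOC106509522 and LOC110259473 stayed negative in every alternative that tested them, but the number of lncRNAs called did not stay at 3. It was 5 with library totals, 6 without a filter and 1 with the filter of 10 counts in every embryo (56 lncRNAs tested). With a change over 1 on the log2 scale as well, it was 4, 5 and 0 under these 3 settings, 1 without the length offset and 0 to 2 when 1 embryo was left out. The filter of 10 counts removed LOC106509385 and LOC106509522 before the test, so their calls were not tested under it. When 1 embryo was left out, 0 to 3 lncRNAs were called (0 without CN2, CN3 or PA2, and 1 without CN1). DESeq2 called 3, of which 2 were called by edgeR. Without an embryo, lncRNAs with an unadjusted p below 0.05 numbered 8 to 13. Over all genes, 173 were called by DESeq2, 196 without a filter and 48 to 128 without 1 embryo, and those lower in PA numbered 114, 134 and 41 to 86. With a change over 1, 77 were called without a filter. Library totals gave 126 calls with 18.3% higher in PA, compared with 32.4% of the 108, and moved the median of all genes from 0.02 to -0.04. The lncRNAs without overlap numbered 15 with all embryos, 27 without CN1, 25 without CN3, and 19 to 27 over all embryos left out.

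PA and CN embryos share replicate numbers. Deviations of same-numbered embryos from their group means correlated at 0.230, 0.114 and 0.0223 across genes, so the numbers were not taken to pair the embryos. With the replicate number as a block, 1 lncRNA was called (LOC106509385, adjusted p = 0.0438), also with a change over 1, and 104 genes in all, while LOC106509522 (adjusted p = 0.0639), LOC110259473 (0.0736) and the neighbour MAN2A1 (0.0600) were not called.

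Estimates near 0 changed sign. With library totals the log2 fold change was -0.023 for TSSC4, -0.020 for LOC102165042, -0.043 for LOC100513397, -0.012 for FRMD8 and -0.034 for BAD. LOC100513397 was at -0.0022 in DESeq2 and at -0.014 on chromosome 2 genes alone, and LOC100627892 at 0.0022 with the block. When 1 embryo was left out, values ran from -0.0011 to 0.075 for TSSC4, from -0.038 to 0.24 for LOC100513133, from -0.071 to 0.072 for LOC100627892, from -0.18 to 0.18 for LOC102165042, from -0.17 to 0.31 for LOC100513397, from -0.12 to 0.068 for EPB41L4A, from -0.031 to 0.12 for FRMD8, from -0.025 to 0.093 for BAD, from -0.17 to 0.033 for WDR83OS, from -0.28 to 0.0010 for LOC100738906 and from -0.16 to 0.078 for ADAMTS19. Each of the 3 calls was lost when at least 1 of the embryos was left out.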

Other observations

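Of 71 tested coding neighbours of the lncRNAs, 4 (5.63%) were called, compared with 7.05% of the coding genes of chromosome 2 tested. Besides TMEM174 and WT1, 2 of the 71 tested coding neighbours of the lncRNAs had an adjusted p below 0.05, both lower in PA and both named after their values were seen. C2H11orf86 was at 61.8, 72.3 and 69.6 TPM in CN and 18.2, 24.1 and 13.7 in PA (log2 fold change -1.78, adjusted p = 0.0051). LOC100514211, whose nearest coding gene is C2H11orf86, lies 11662 bases from it. This lncRNA was at 19.4 ± 3.66 TPM in CN and 21.0 ± 3.16 in PA (log2 fold change 0.21, SE 0.24, adjusted p = 0.666), with overlap between the groups. MAN2A1, an enzyme of N-glycan processing in the Golgi, was at 123, 164 and 136 TPM in CN and 95.1, 99.7 and 114 in PA (log2 fold change -0.38, adjusted p = 0.0375). That call held without CN1 (adjusted p = 0.0404) and was lost without CN2 (0.144), CN3 (0.0780), PA1 (0.0589), PA2 (0.128) or PA3 (0.0995). The lncRNA LOC100626591, 77011 bases from it, was at 1.40 ± 0.39 and 1.11 ± 0.06 TPM (log2 fold change -0.24, SE 0.24, adjusted p = 0.633). Neither lncRNA passed the test, and the difference between the change of a neighbour and that of its lncRNA was not tested.

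LOC106509501, also named after its values were seen, lies antisense to FAM172A and shares 39.8% of its exonic bases with it. FAM172A was at 111, 134 and 143 TPM in CN and 136, 172 and 169 in PA, without overlap in scaled counts (log2 fold change 0.37, adjusted p = 0.0559), and the lncRNA was at 1.31% of its level. It was at 1.80, 1.26 and 1.26 TPM in CN and 1.99, 1.81 and 3.25 in PA, without overlap in TPM but with overlap in scaled counts (log2 fold change 0.74, SE 0.30, adjusted p = 0.201).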
